A study of Glycine max with 6 samples.

Results

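Transcripts of 4 genes that act on the extensibility of the plant cell wall, EXP1, XTH1, XET1 and CEL12, were followed in roots of IsoClark (Fe-inefficient) and Clark (Fe-efficient), near-isogenic soybean lines grown in Fe sufficient hydroponics. The genes were represented by all clones whose only gene symbol in the platform annotation was one of these 4. This gave 11 of the 18361 clones on the array: 1 for EXP1, 3 for XTH1, 2 for XET1 and 5 for CEL12. Among all clones, 1091 carried a single symbol, for 526 genes.

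Root RNA of IsoClark and of Clark was labelled with opposite dyes, Cy3 and Cy5, mixed and hybridized to spotted cDNA arrays. IsoClark carries the Fe-inefficient trait of a donor line backcrossed into Clark, so both lines share the Clark background. Both groups received the same sufficient Fe supply, and whether either line was under Fe stress was not measured here. There were 3 biological replicates, each hybridized as a dye swap on 2 arrays, which makes 6 arrays. By the study's methods a replicate is root tissue of plants grown together in hydroponics and not a single plant.

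Growing plant cells enlarge only when the wall around them yields. Expansins loosen the contacts between cellulose and the polymers that coat it without cutting them, xyloglucan endotransglucosylase/hydrolases (the XTH family, also named XET) cut xyloglucan chains and rejoin their ends, and endo-1,4-beta-glucanases cut glucan chains. In roots such proteins are known for their part in the elongation zone and in the outgrowth of root hairs and lateral roots. Each of these proteins belongs to a large gene family, and a spotted cDNA can also bind transcripts of close relatives, so a value below belongs to the clone and may include family members.

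None of the 4 genes passed the test of a difference between the lines. The ratio of IsoClark over Clark, given throughout on the log2 scale as mean ± SD over n = 3 replicates with the arrays of a dye-swap pair averaged first, was -0.28 ± 0.23 for EXP1, -0.12 ± 0.17 for XTH1, -0.16 ± 0.38 for XET1 and -0.06 ± 0.07 for CEL12. The limma adjusted p was 0.794 for EXP1, 0.854 for XTH1, 0.852 for XET1 and 0.925 for CEL12, adjusted over 13083 genes and unnamed clones. The XET1 value comes from 1 of its 2 clones, since the other could not be tested. By clone, 10 of the 11 clones could be tested and the mean ratios ran from -0.29 in an XTH1 clone to 0.23 in a CEL12 clone. All 10 intervals of 95% confidence lay within a 2-fold difference in either direction, as did those of 97.9% of all clones.

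**Figure D1:**
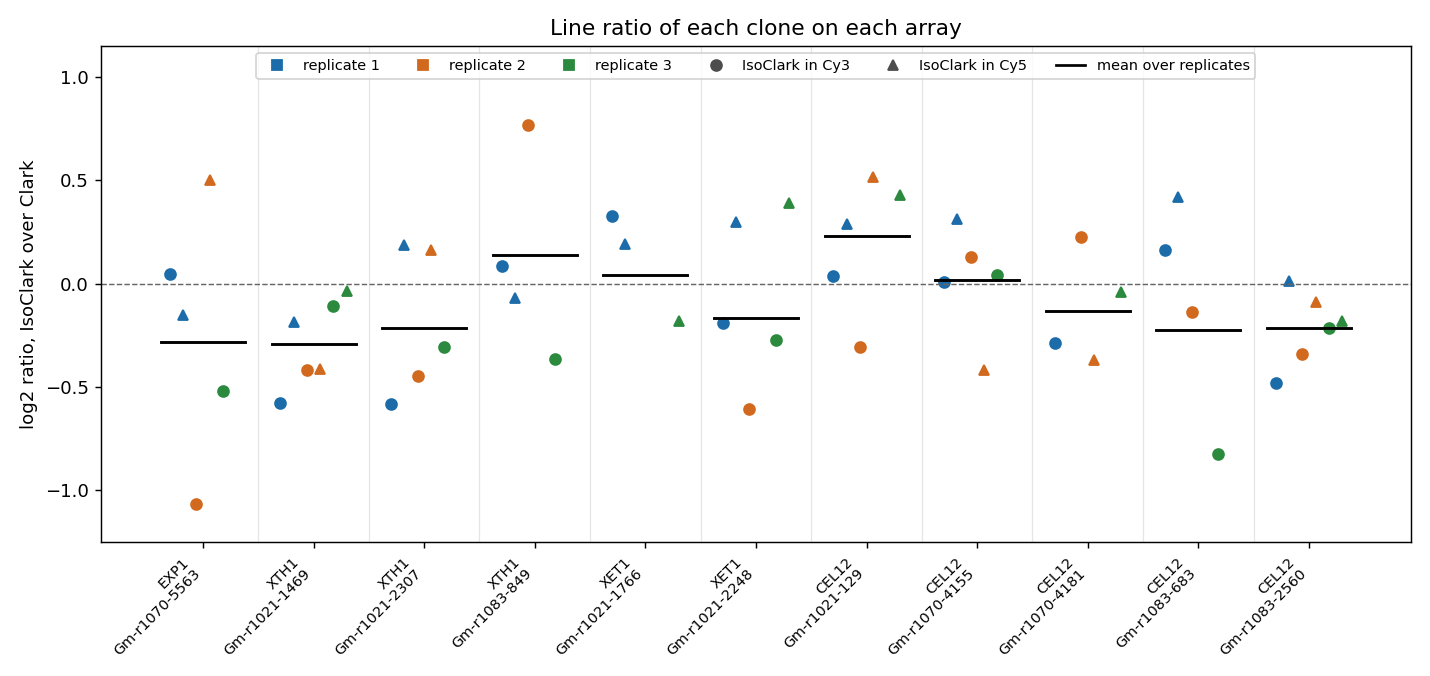
Line ratio (log2, IsoClark over Clark) of the 11 clones on each array with a usable spot, coloured by replicate and shaped by the dye of IsoClark, with a bar at the mean over the replicates. XTH1 clone Gm-r1021-1469 lay below 0 on 6 of 6 arrays, while EXP1 ran from -1.07 to 0.50.

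The arrays themselves were of uneven quality. Between 18.9% and 44.2% of the cDNA spots per array were flagged as poor by the image program and left out of the ratios, as were 14 of the 66 spots of these clones, 5 of them on the IsoClark-Cy5 array of replicate 3. As a result 11 of the 30 replicate values of the tested clones come from 1 array, so that the dyes are not balanced in them. Another 6 of the 66 spots were flagged as empty by the program and were kept in the ratios. The line ratios of all clones correlated at 0.11, -0.06 and -0.08 between the arrays of replicates 1, 2 and 3. The IsoClark-Cy5 array of replicate 2 stood apart, its spot intensities correlating with the other arrays at a mean r of 0.335, against 0.594 to 0.706 for the other 5 arrays. The direction of 2 arrays is also given inconsistently. For the array that stood apart, the text of the labelling protocol names the opposite dye. The deposited ratio column of the IsoClark-Cy3 array of replicate 3 runs opposite to its label. The dye in the label field was followed for every array. Signs of the line ratio, and counts of them, that rest on the direction of these arrays are also given with each turned round. Of the genes fixed as signs of other tissues, 7 tested clones of seed storage genes had ratios of -0.01 to 0.80 (median 0.16), 9 of green tissue -0.20 to 0.23 (median 0.05) and 1 of nodules 0.06. None of these 17 clones passed the limma test, all were above background in both lines on at least 3 arrays, and their part in the values below was not tested. No gene defining root tissue had been fixed, so the labelled tissue was not checked against one.

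The clones of the 4 genes gave signal in both lines. A spot counted as above background where its mean signal exceeded the local background median by more than 2 SD of the background. By this measure 8 of the 11 clones were above background on all arrays in IsoClark and 10 of 11 in Clark. Per array, 80.5% to 96.9% of all cDNA spot readings were above background, and 6.53% to 9.17% of those at blank positions. Signal above background was thus common on these arrays and not particular to these clones. Median signals over the arrays ran from 2.57 to 25.1 times the local background in IsoClark and from 3.20 to 28.5 times in Clark. These multiples depend on the spot and were not compared between clones.

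**Figure D2:**
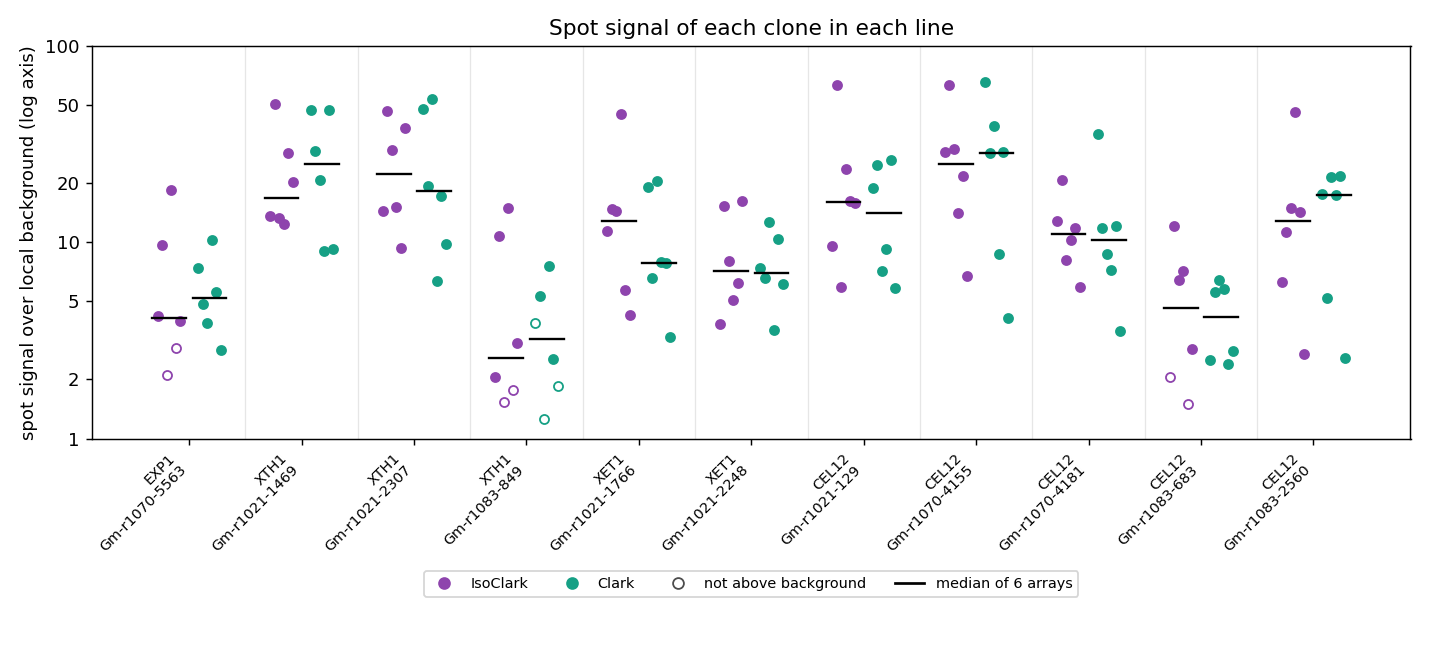
Spot signal divided by its local background (log axis) for each clone on the 6 arrays, IsoClark left of Clark, with open circles where the signal was not above background and a bar at the median. The lines overlapped for all 11 clones, and the open circles belong to EXP1, XTH1 clone Gm-r1083-849 and CEL12 clone Gm-r1083-683.

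EXP1, the expansin, was read by clone Gm-r1070-5563. Its signal was 2.10 to 18.5 times background in IsoClark (median 4.09), against 2.83 to 10.3 times in Clark (median 5.21), so the ranges overlapped. The line ratio was 0.05 and -0.15 on the arrays of replicate 1 and -1.07 and 0.50 on those of replicate 2, the array with IsoClark in Cy3 first, and -0.52 on the only usable array of replicate 3, which had IsoClark in Cy3. The arrays thus fell on both sides of 0. The 2 lowest ratios came from the 2 arrays on which IsoClark was not above background, although Clark was. The spot that gave -0.52 had also been flagged as empty. Averaged per replicate the ratios were -0.05, -0.28 and -0.52, all below 0. The mean of -0.28 had a 95% interval of -0.62 to 0.05 and a limma p of 0.0834 (adjusted p = 0.796). Without the array that stood apart the mean was -0.55, with the same array turned round by its protocol text it was -0.45 and without replicate 3 it was -0.17. With the IsoClark-Cy3 array of replicate 3 turned round the mean was 0.06, on the other side of 0.

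XTH1, an enzyme that cuts and rejoins xyloglucan, was read by 3 clones. Clone Gm-r1021-1469 had a signal of 12.4 to 50.9 times background in IsoClark (median 16.9), against 9.02 to 47.3 times in Clark (median 25.0). Its line ratios were -0.58 and -0.18 in replicate 1, -0.42 and -0.41 in replicate 2, and -0.11 and -0.04 in replicate 3, with the array that carried IsoClark in Cy3 given first. This was one of 2 clones of the 4 genes with a usable spot on every array, and the ratio was below 0 on 6 of 6; among all clones usable on every array, 2.33% were below 0 on all of them and 4.74% kept one sign on all of them. Turning an array round reverses the sign of its ratio, so a clone with one sign on all 6 arrays must lose it. The 6 of 6 therefore holds only if the labels of both arrays of doubted direction are right. The share of all clones usable on every array that kept one sign was 5% with the array of replicate 3 turned. With that of replicate 2 turned it was 2.41%. The replicate values were -0.38, -0.42 and -0.07, the last nearest to 0. Their mean of -0.29 ± 0.19 had a 95% interval of -0.61 to 0.03, with a limma p of 0.0680 and an adjusted p of 0.796. The size of the mean depended on the processing: it was -0.06 after print-tip loess and -0.15 with the IsoClark-Cy5 array of replicate 2 turned round.

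The remaining XTH1 clones differed from it in their arrays. Clone Gm-r1021-2307, with median signals of 22.3 times background in IsoClark and 18.2 times in Clark, had ratios of -0.58, -0.45 and -0.31 on the arrays with IsoClark in Cy3. On the usable arrays with IsoClark in Cy5 its ratios were 0.19 and 0.16. The sign thus followed the dye, and the replicate values of -0.20, -0.14 and -0.31, the last from 1 array, averaged -0.22 ± 0.08 (95% interval -0.51 to 0.08, limma adjusted p = 0.796). Clone Gm-r1083-849, above background on 4 of 6 arrays in IsoClark and 3 of 6 in Clark, had replicate values of 0.01, 0.77 and -0.36. The highest of these rests on 1 array, where neither line was above background and the spot was flagged as empty. The lowest also rests on 1 array. The mean of this clone, 0.14 ± 0.58 (limma adjusted p = 0.904), carries the widest spread of the 10 tested clones.

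XET1 encodes a protein of the same enzyme family and was read by 2 clones. Clone Gm-r1021-2248 had a signal of 3.82 to 16.3 times background in IsoClark (median 7.11), against 3.58 to 12.7 times in Clark (median 6.98). Its ratios were -0.19, -0.60 and -0.27 on the arrays with IsoClark in Cy3, and 0.30 and 0.39 on the usable arrays with IsoClark in Cy5. As in the XTH1 clone Gm-r1021-2307, every array with IsoClark in Cy3 was below 0 and every usable array of the opposite orientation was above it. Opposite signs of this kind were found in 2 of the 8 clones with at least 2 usable arrays in each orientation, and in 11.6% of all such clones. The pattern amounts to one sign of Cy5 over Cy3 on every usable array, whichever line was in which dye. The doubted direction of arrays thus bears on the line ratios of these clones and not on the pattern. In the counts, the labels decide only which clones had enough usable arrays in each orientation. The replicate values of clone Gm-r1021-2248 were 0.05, -0.60 and 0.06, of which the lowest rests on a single array with IsoClark in Cy3, and the mean was -0.16 ± 0.38 (95% interval -0.56 to 0.24, limma adjusted p = 0.853). With replicate 2 left out, the mean was 0.06. Clone Gm-r1021-1766 had no usable spot in replicate 2 and was not tested; its usable arrays gave 0.33 and 0.19 in replicate 1 and -0.18 in replicate 3, on both sides of 0.

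**Figure D3:**
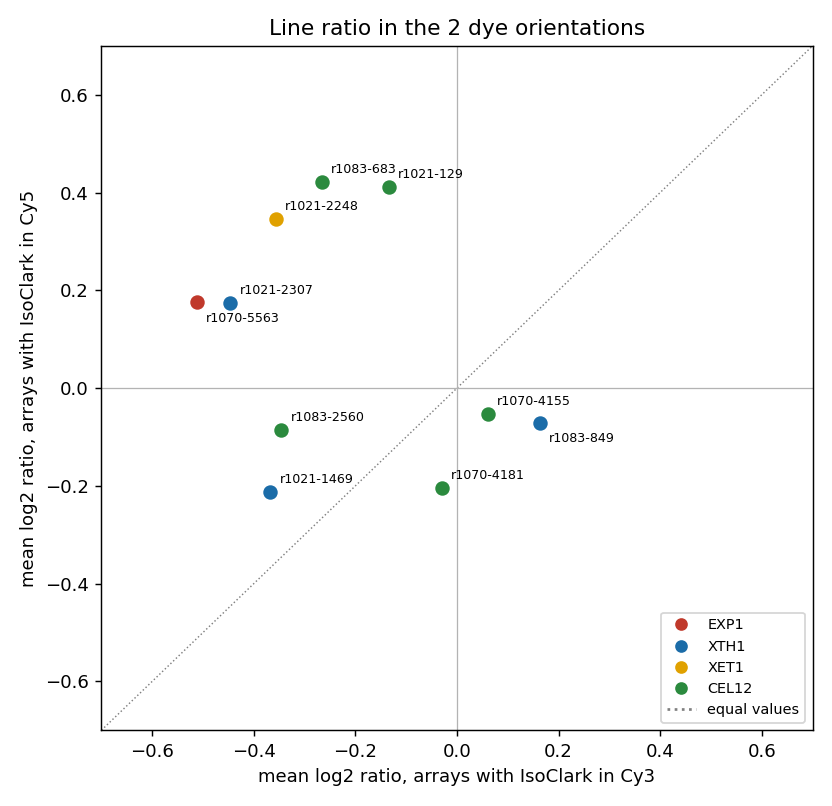
Mean line ratio (log2, IsoClark over Clark) of each tested clone over its usable arrays with IsoClark in Cy3 (horizontal axis) and with IsoClark in Cy5 (vertical axis), coloured by gene, with a dotted line where both would be equal. In the upper left lie EXP1 (-0.51 and 0.18), XTH1 clone Gm-r1021-2307 (-0.45 and 0.17), XET1 clone Gm-r1021-2248 (-0.36 and 0.35) and the CEL12 clones Gm-r1021-129 (-0.13 and 0.41) and Gm-r1083-683 (-0.27 and 0.42), while XTH1 clone Gm-r1021-1469 and CEL12 clone Gm-r1083-2560 lie below 0 on both axes.

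CEL12, an endo-1,4-beta-glucanase, had 5 clones on the array and all 5 were tested. Clone Gm-r1083-2560, usable on every array, had a signal of 2.70 to 45.8 times background in IsoClark (median 12.8), against 2.58 to 21.6 times in Clark (median 17.5). Its ratios were -0.48 and 0.01 in replicate 1, -0.34 and -0.09 in replicate 2 and -0.22 and -0.18 in replicate 3, the array with IsoClark in Cy3 first. The spot that gave -0.18 was flagged as empty. The arrays with IsoClark in Cy3 were the lower ones in each pair, averaging -0.35, while those with IsoClark in Cy5 averaged -0.09. Within pairs this difference cancelled to replicate values of -0.23, -0.22 and -0.20, which agree more closely than those of any other tested clone of the 4 genes. The mean of -0.22 ± 0.02 had a 95% interval of -0.50 to 0.07 and a limma p of 0.119 (adjusted p = 0.796); after print-tip loess the mean was -0.07. To form the interval, limma moves so small an SD toward the spread of all clones.

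Clone Gm-r1021-129 lay on the other side of 0. It had a signal of 5.89 to 63.5 times background in IsoClark (median 15.9), against 5.86 to 26.1 times in Clark (median 14.1). Its line ratios were 0.04 and 0.29 in replicate 1, -0.30 and 0.52 in replicate 2, and 0.43 on the usable array of replicate 3, which had IsoClark in Cy5. The spot that gave 0.52 was flagged as empty. Of the 5 usable arrays, 4 were above 0. This was the only tested clone of the 4 genes above 0 in all 3 replicates (0.16, 0.11 and 0.43), which 15.8% of all clones were, and its mean was 0.23 ± 0.17 (95% interval -0.08 to 0.55, limma adjusted p = 0.796). Without the array that stood apart the mean was 0.10, and with that array turned round by its protocol text it was 0.06 and the clone was no longer above 0 in all 3 replicates, as 14.9% of all clones then were.

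The other 3 CEL12 clones had means between -0.22 and 0.02. Clone Gm-r1070-4155 had median signals of 25.1 times background in IsoClark and 28.5 times in Clark. Its replicate values were 0.16, -0.15 and 0.04, the last from 1 array, and its mean was 0.02 ± 0.16. Clone Gm-r1070-4181 had replicate values of -0.29, -0.07 and -0.04, all below 0, and a mean of -0.13 ± 0.14. Its first value comes from 1 array with IsoClark in Cy3 and its last from 1 array with IsoClark in Cy5. The arrays of replicate 2 gave 0.23 with IsoClark in Cy3 and -0.37 with IsoClark in Cy5. Clone Gm-r1083-683 was above background on 4 of 6 arrays in IsoClark and 6 of 6 in Clark. Its replicate values of 0.29, -0.14 and -0.82 were spread on both sides of 0, with a mean of -0.22 ± 0.56. The values of replicates 2 and 3 come from 1 array each, with IsoClark in Cy3. On that array of replicate 3 IsoClark was not above background, and the IsoClark-Cy3 spot of replicate 1 was flagged as empty. The limma adjusted p was 0.844 or more for each of these 3 clones.

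For XTH1 and for CEL12, the means of the tested clones lay on both sides of 0. Between the clones of a gene the mean ratios had an SD of 0.23 for XTH1 and 0.19 for CEL12. The median SD between replicates was 0.19 for the XTH1 clones and 0.16 for the CEL12 clones. The former is a spread of means over 3 replicates and the latter of single replicate values, so their sizes cannot be compared directly. In 13 pairs of clones of the same gene, the difference kept one sign in all 3 replicates in 4, all of CEL12. The largest of these was between Gm-r1021-129 and Gm-r1083-2560, with a mean difference of 0.45 ± 0.16. A two-sided exact sign-flip test of 3 replicates cannot go below a p of 0.25, which is the value these 4 pairs reached (Benjamini-Hochberg adjusted over the 13 pairs, p = 0.722).

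Set against the array as a whole, the test called 0 of 13430 clones (0%) at an adjusted p of 0.05, and 0 of the 10 clones described here. At an unadjusted p under 0.05 in limma there were 743 clones (5.53%), again with 0 of these 10. A mean difference of at least 2-fold was found in 4 clones (0.0298%) and in 0 of the 10. The mean was below 0 in 7 of the 10 clones, against 49.3% of all clones, and 5 of the 10 were below 0 in all 3 replicates, against 13.3%. These 5 were EXP1, the XTH1 clones Gm-r1021-1469 and Gm-r1021-2307 and the CEL12 clones Gm-r1070-4181 and Gm-r1083-2560. The count depended on the processing: it was 1 of 10 after print-tip loess, with 11.9% of all clones, and 1 of 10 with the IsoClark-Cy3 array of replicate 3 turned round, with 14.1%. With the IsoClark-Cy5 array of replicate 2 turned round it was 4 of 10, with 10.3%. The median ratio of the 10 clones was -0.19, against 0.00314 for all clones, and the median absolute ratio was 0.216, against 0.120. Their median SD between replicates was 0.18, against 0.22.

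**Figure D4:**
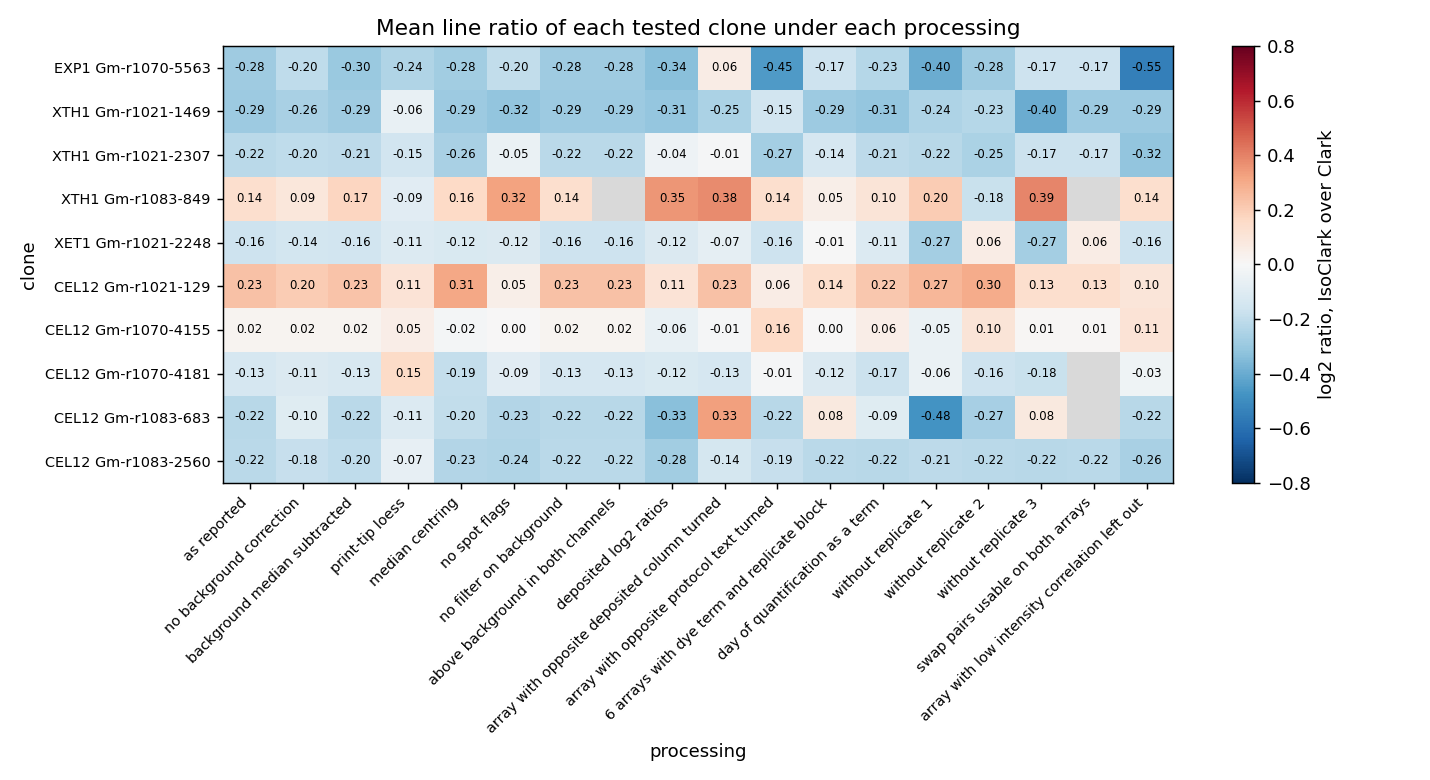
Mean line ratio (log2, IsoClark over Clark) of each tested clone (vertical axis) as reported and under 17 other ways of processing (horizontal axis), with blue below 0, red above 0 and grey where the clone could not be tested. XTH1 clones Gm-r1021-1469 and Gm-r1021-2307 and CEL12 clone Gm-r1083-2560 were below 0 and CEL12 clone Gm-r1021-129 above 0 in each column, and none of the values passed the test.

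The array also carried 4 genes with other tasks in or around the wall, matched by symbol: SBPRP, a proline-rich structural protein, UGD1, which makes the UDP-glucuronic acid used for wall polysaccharides, CWINV, the invertase bound to the wall, and PGIP, an inhibitor of the polygalacturonases of pathogens. Of their 6 clones 3 could be tested, and 3 were above 0 and 0 below, where 49.3% of all clones were below 0. Their median ratio was 0.15, against 0.00314 for all clones. Of these clones 0 passed the test and 0 had an unadjusted limma p under 0.05. UGD1 clone Gm-r1021-324 averaged 0.15 ± 0.19. The untested UGD1 clones lay on both sides of 0, Gm-r1070-5804 at 0.10 and 0.14 in replicates 2 and 3 and Gm-r1083-771 at 0.26 and -0.71 in replicates 1 and 3. CWINV had replicate values of -0.05, 1.12 and 0.13 and a mean of 0.40 ± 0.63, so that its mean rests mostly on replicate 2. PGIP had replicate values of 0.32, 0.79 and -0.70 and a mean of 0.14 ± 0.76. SBPRP was usable in replicates 1 and 3 only, at 0.29 and -0.31, and was not tested.

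Patterns over the 6 arrays could be set against other named genes only for XTH1 and CEL12, each through its clone with a usable spot on every array. Among 156 named clones usable on all 6 arrays, the line ratio of XTH1 clone Gm-r1021-1469 ran most like that of KTI3, a Kunitz trypsin inhibitor (Pearson's r 0.956), and of HPS, the hydrophobic protein of the soybean seed surface (r 0.949). CEL12 clone Gm-r1083-2560 ran most like APX2, an ascorbate peroxidase (r 0.894), and GY2, a glycinin seed storage protein (r 0.892). These are the highest of 156 values each, over 6 arrays that share RNA in pairs and dyes in threes, and they are given as a description. The order rests on the direction of the arrays. With the IsoClark-Cy3 array of replicate 3 turned round, IFS2, an isoflavone synthase, came first for the XTH1 clone (r 0.944), and with the IsoClark-Cy5 array of replicate 2 turned round IFS2 came first for the CEL12 clone (r 0.938).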

How the data were processed

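The authors quantified each dye of the 6 arrays with the ImaGene program (6.1.0, per the file headers) and deposited the spot intensity (signal mean, signal median, background median and background SD, linear and not normalized) with a quality flag. The deposited table of log2 ratios, whose background correction and normalization are not given in the sources used here, served as an alternative. Its columns were set against the scanner values for direction: 5 hold IsoClark over Clark and that of the IsoClark-Cy3 array of replicate 3 the opposite. The column medians ran from -0.28 to 0.11, so centring and exact scale stay unknown.

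The platform annotation names table rows, not clones. Rows were tied to clones by 1 shift of the clone number per clone set, found from the values (mean absolute r of 0.700 to 0.735 at the shift used, at most 0.215 at the next best). Coordinates and sequences are left out, since no build is named for these arrays.

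Background was corrected by normexp (offset 50) and global loess was run within each array (limma 3.58.1 under R 4.3.3). Blank and empty positions and spots flagged as poor had weight 0. Spots of cDNA clones that the image program flagged as empty kept their weight and were used. The arrays of a swap pair, which share RNA by the study's methods, were averaged. The 3 replicate values were tested against 0 (lmFit, eBayes, Benjamini-Hochberg over all clones, threshold 0.05). A clone was tested if above background (2 SD) in either line on at least 3 arrays and measured in all 3 replicates. Arrays of a pair had a consensus correlation of 0.0033, and the p-values measure the spread between 3 replicate values, which holds array noise. The number of arrays limits the precision.

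All clones of the 4 genes and all measured genes of the wider wall list are named; for likeness, the 2 genes with the highest r. The members and lists were chosen with earlier results of these data known. Alternatives covered background, normalization, flags, filters, array direction, quantification day, the replicate block and left-out replicates or arrays.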

Additional observations from a re-analysis of the deposited data

Results flagged for a closer look

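In 2 clones every usable array with IsoClark in Cy3 lay on one side of 0 and every usable array with IsoClark in Cy5 on the other. The mean line ratio of XTH1 clone Gm-r1021-2307 was -0.45 with IsoClark in Cy3 and 0.17 with IsoClark in Cy5. That of XET1 clone Gm-r1021-2248 was -0.36 with IsoClark in Cy3 and 0.35 with IsoClark in Cy5. The difference between the orientations was not tested, and 11.6% of all clones with at least 2 usable arrays in each orientation showed such opposite signs. In both clones Cy5 over Cy3 was above 0 on every usable array. That holds whichever line was in which dye, so the pattern does not rest on the arrays of doubted direction, while the line ratios do.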

How the results depend on the processing

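Under 17 alternatives, 2 of them (pairs usable on both arrays, and leaving out the array that stood apart) and the counts of signs chosen after seeing the data, 0 clones of the 4 genes passed the test, and the smallest adjusted p of any of them in limma ran from 0.637 to 1.00. Of the clone ratios, 153 kept their sign and 13 did not; of the gene ratios, 59 did and 9 did not. Print-tip loess gave -0.089 for XTH1 clone Gm-r1083-849, 0.15 for CEL12 clone Gm-r1070-4181 and 0.028 for CEL12 as a gene. CEL12 clone Gm-r1070-4155 was at -0.017 after median centring, -0.056 in the deposited ratios and -0.0085 with the IsoClark-Cy3 array of replicate 3 turned. That turn also gave 0.061 for EXP1 as clone and gene, 0.33 for CEL12 clone Gm-r1083-683, 0.038 for XTH1 as a gene and 0.055 for CEL12 as a gene. XET1 as a gene was 0.019 with flags ignored and 0.00283 in the deposited ratios, where XTH1 was 0.000505. In the replicate block with a dye term, CEL12 clone Gm-r1083-683 was 0.077 and no call changed. Where only pairs usable on both arrays counted, XET1 was 0.057 as clone and gene, and 4 of 7 clones had means below 0.

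Leaving out each replicate in turn, the ratios that changed sign ran from -0.052 to 0.10 for CEL12 clone Gm-r1070-4155, -0.18 to 0.39 for XTH1 clone Gm-r1083-849, -0.27 to 0.057 for XET1 clone Gm-r1021-2248 (-0.27 to 0.049 as a gene) and -0.48 to 0.078 for CEL12 clone Gm-r1083-683, and the median of the wider wall list from -0.0097 to 0.54. The number of clones 2-fold apart, 4 as reported, was 15 to 36 in these fits, 0 without background correction, 22 with subtraction, 1 with print-tip loess, flags ignored or pairs usable on both arrays, 141 in the deposited ratios, 2 with the array of opposite protocol text turned and 15 in the fit with the quantification day, where 5 clones passed, none of the 4 genes. Without the array that stood apart the 10 means ran from -0.55 to 0.14, with 7 below 0. The cause of these shifts was not tested. Requiring signal above background in both dyes removed XTH1 clone Gm-r1083-849. Below 0 in all replicates were 3 clones of 11 with flags ignored, against 14% of all clones. In the deposited ratios 2 of 11 were, against 12.6% of all clones. In IsoClark, EXP1 and the clones Gm-r1083-849 and Gm-r1083-683 were each above background on 4 of 6 arrays.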
